A study of Mus musculus with 2 samples.

Results

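Imprinted genes, which are transcribed mainly from the copy inherited from 1 parent, were examined in pancreatic islets whose beta cells were to lack the transcription factor ZBTB20. The genes were Nnat, Peg3, H19, Cdkn1c, Meg3, Dlk1, Grb10, Plagl1, Gnas and Mest, and every probe set assigned to a single 1 of them was taken. They were chosen on the MAS5 signals of these same arrays, so all of their values are given as a description and none is tested. Of the 10 genes, 9 had such a probe set, among 18193 genes in all, and they had 32 probe sets together. The 1 probe set that lists H19 is shared with the microRNA gene Mir675, so H19 has no value here.

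The study set out to find genes controlled by ZBTB20 in beta cells. It used 1 Affymetrix array for b cell-specific ZBTB20 knockout islets and 1 array for wildtype islets of littermates. Both groups were adult mice of 2 to 3 months on a mixed background, and their islets were hand-picked after collagenase digestion, cultured overnight and frozen. The line that drives the deletion, the deleted part of the gene, and the number and sex of the animals behind an array are not given in the sources used here. With 1 array in each group there is no replicate error, so no standard error or p-value can be given and each ratio compares 2 RNA preparations.

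Imprinted genes carry DNA methylation or histone marks set in the egg or sperm, and these marks keep the copy from 1 parent silent. They lie in clusters, and many are most active in the embryo, in endocrine tissue and in the brain, where they act on growth, hormone secretion and metabolism. Nnat, Dlk1, Plagl1, Peg3 and Mest are expressed from the paternal copy, whereas Meg3, H19, Cdkn1c and, in most mouse tissues, Grb10 are expressed from the maternal copy. The main Gnas transcript is made from both copies in most tissues, with other transcripts of the locus restricted to 1 copy. In mouse beta cells the Nnat product neuronatin, a small membrane protein of the endoplasmic reticulum, is known to bind the signal peptidase complex and to help the processing of preproinsulin.

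The start regions of Nnat and Dlk1, the imprinted genes past 2-fold, and of Meg3, which shares the Dlk1 locus, are given from 250 bases before to 50 bases after a RefSeq transcript start in build GRCm38.p6. All are on the plus strand, at chr2:157559828-157560127 for Nnat, chr12:109452573-109452872 for Dlk1 and chr12:109540746-109541045 for Meg3, written 5′ to 3′. The Nnat and Meg3 windows are at the outer start of the RefSeq gene span, and the Dlk1 window is at a start inside it. Capitals mark each CG dinucleotide, the site of DNA methylation in mammals.
Nnat: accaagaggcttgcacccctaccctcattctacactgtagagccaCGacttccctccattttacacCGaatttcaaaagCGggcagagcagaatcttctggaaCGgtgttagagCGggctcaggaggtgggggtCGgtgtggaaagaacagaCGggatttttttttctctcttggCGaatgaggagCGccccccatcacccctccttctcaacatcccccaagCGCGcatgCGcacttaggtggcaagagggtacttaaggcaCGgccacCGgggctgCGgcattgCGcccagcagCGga
Dlk1: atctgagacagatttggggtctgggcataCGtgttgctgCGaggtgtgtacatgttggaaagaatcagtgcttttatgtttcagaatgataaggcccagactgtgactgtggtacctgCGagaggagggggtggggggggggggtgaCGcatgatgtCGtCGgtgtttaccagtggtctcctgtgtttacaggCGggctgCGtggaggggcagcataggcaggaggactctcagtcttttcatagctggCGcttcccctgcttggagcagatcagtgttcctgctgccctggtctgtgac
Meg3: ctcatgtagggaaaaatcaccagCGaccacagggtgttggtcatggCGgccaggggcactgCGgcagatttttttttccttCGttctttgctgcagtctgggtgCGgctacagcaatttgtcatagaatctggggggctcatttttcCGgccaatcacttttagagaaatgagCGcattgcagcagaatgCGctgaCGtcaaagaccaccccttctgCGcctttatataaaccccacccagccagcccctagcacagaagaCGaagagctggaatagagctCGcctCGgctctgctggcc
There are 17 CG dinucleotides in the Nnat window, 9 in the Dlk1 window and 13 in the Meg3 window shown, against a median of 7 over 32851 windows of the same length. At least as many as in Nnat were found in 31.4% of those windows, as in Dlk1 in 45.8% and as in Meg3 in 37.9%. Another Meg3 start in the same table, further inside the gene, has 1. CG reads the same on both strands, and the arrays did not measure its methylation.

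Signals are deposited MAS5 intensities on a linear scale, where MAS5 is the Affymetrix method for combining all probes of a set. The median of each array, 21.7 for knockout-labelled and 21.6 for control islets, served as a floor. Lower signals were set to it, and log2 ratios then put the knockout-labelled signal over the control signal. A ratio with 1 signal under the floor is a bound, and a probe set under it on both arrays has no ratio. Calls of higher and lower needed a ratio of 2-fold or more. Zbtb20 itself did not settle the genotype label: 5 of its 9 probe sets were lower in knockout-labelled islets and 4 were higher, with log2 ratios between -0.87 and 0.54, so the array is called knockout-labelled. Islet identity was plain on both arrays, with Ins2 (insulin) at 7785.8 in knockout-labelled and 9194.3 in control islets.

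Of the imprinted genes, Nnat and Dlk1 were more than 2-fold higher in knockout-labelled islets and none was 2-fold lower. The other 6 genes with a ratio stayed within 2-fold, and Cdkn1c was under the floor on both arrays. By probe set, 27 of 32 had a ratio, 24 from signals above the floor on both arrays. Of these 27, 2 were at least 2-fold higher, where 1.88% of the 21257 probe sets with a ratio were, and 0 were at least 2-fold lower, where 1.29% were. Ratios were above 0 for 12 and below 0 for 15 of the 27, with a median log2 ratio of -0.02, against 0.0032 over the probe sets of all genes. With the brightest probe set standing for a gene, 5 of 8 genes had a ratio above 0, where 49.9% of 11802 genes did. The median was 0.29 against 0.00 over the 11802 genes, with 1.82% of them called higher and 1.44% called lower. Since the genes were picked with these values in view, the shares are not read against each other.

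**Figure D1:**
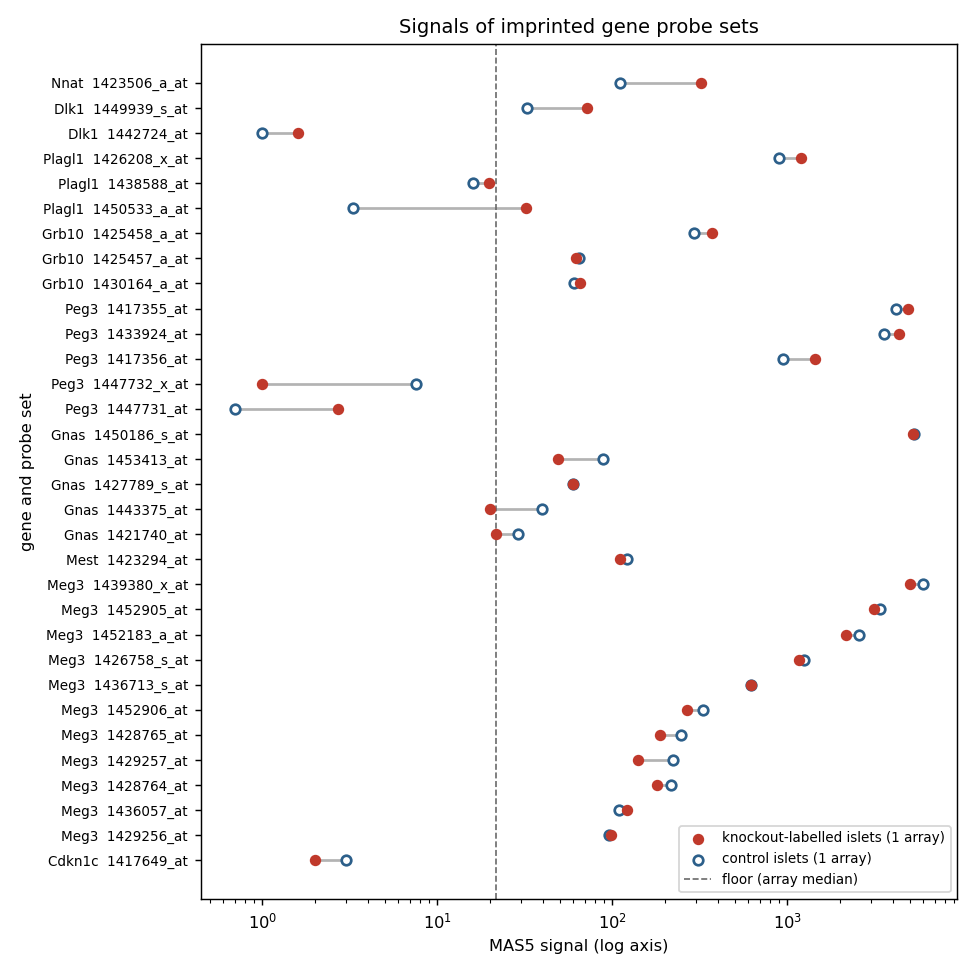
MAS5 signal (log axis) of each of the 32 probe sets of the imprinted genes on the knockout-labelled array (filled red) and the control array (open blue), with the floor as a dashed line. Nnat stands at 319.8 in knockout-labelled and 110.8 in control islets, and 5 probe sets lie under the floor on both arrays.

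Among the paternally expressed genes, Nnat had the largest ratio. Its probe set 1423506_a_at gave a signal of 319.8 in knockout-labelled islets and 110.8 in control islets, both well clear of the floor. The ratio was 2.89-fold, a log2 ratio of 1.53. It was the only probe set assigned to Nnat, so the transcript has no second measurement here. Of the probe sets in the same 1 of 20 bins of signal, the central 95% had log2 ratios between -0.60 and 0.77, which describes the scatter of single probe sets and leaves out variation between preparations. Over all genes, 63 had a log2 ratio at least as high as that of Nnat. In these bulk samples, a different number of cells of a type and a different amount of RNA per cell cannot be told apart.

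Nnat lies inside the RefSeq span of Blcap, a gene of the same imprinted domain. Blcap had a signal of 167.5 in knockout-labelled and 161.7 in control islets, a log2 ratio of 0.05. The host gene thus showed almost the same signal on both arrays while the gene inside it did not. Among the 4283 genes above the floor on both arrays with a mean log2 signal within 1 of that of Nnat, those nearest to it in log2 ratio were Pamr1 (1.53), Epb41l4a (1.55) and Map7d2 (1.57). Likeness here is the difference between log2 ratios over 2 arrays, the largest being 0.045 for Map7d2. Of the 4283 genes, 21 had a log2 ratio at or above that of Nnat.

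Genes of the machinery that neuronatin works with were within 2-fold in their brightest probe sets. The list of signal peptidase subunits, translocon components and the calcium pump gene Atp2a2 had 17 measured genes, 6 above and 11 below 0. Of all genes, 49.9% were above 0. None of the list was at 2-fold, and its median log2 ratio was -0.04. Spcs3, a subunit of the signal peptidase complex, had the highest log2 ratio at 0.20, with signals of 2187.6 in knockout-labelled and 1907.7 in control islets. Sec63, a component of the translocation channel, had the lowest at -0.16. Weaker probe sets of Tram1 and Sec62 had log2 ratios of up to 1.08 and 0.78, against -0.04 and -0.11 in their brightest.

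Dlk1 encodes a membrane protein with epidermal growth factor repeats, related to the Notch ligands. Its probe set 1449939_s_at gave 71.3 in knockout-labelled and 32.6 in control islets, a 2.19-fold higher signal. The control signal lay close to the floor, and the central 95% of probe sets at this signal had log2 ratios between -0.94 and 1.09, next to the 1.13 of Dlk1. With the floor at the 70th percentile of each array the control signal was under it, and the log2 ratio was a bound of at least 0.09. The other Dlk1 probe set, 1442724_at, was under the floor on both arrays. Over all genes, 156 had a log2 ratio at least as high as that of Dlk1. The ending _s_at marks probes that may match transcripts of more than 1 gene.

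Of the Notch pathway genes, none reached 2-fold. The list had 14 measured genes, 4 above and 10 below 0, and a median log2 ratio of -0.17. Of all genes, 49.9% were above 0. The ligand gene Dll4 was at 65.0 in knockout-labelled and 37.9 in control islets, the highest log2 ratio at 0.78. The receptor gene Notch1 was at 39.7 in knockout-labelled and 68.1 in control islets, the lowest at -0.78. Another measured probe set had a log2 ratio of 0.50 for Dll4 and of 0.305, in the other direction, for Notch1. Other measured probe sets kept the direction for Jag1, Jag2 and Hes6. They lay on both sides of 0 for Rbpj and above 0 for Maml1, both counted as below. The ratios of Notch2 and Notch3 are bounds.

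Plagl1, a zinc finger transcription factor gene, was within 2-fold. Its brightest probe set 1426208_x_at gave 1200.0 in knockout-labelled and 894.0 in control islets, a log2 ratio of 0.42. For 1450533_a_at the signals were 32.3 in knockout-labelled and 3.3 in control islets. Because the control signal was under the floor, that log2 ratio is a bound of at least 0.58. The remaining probe set, 1438588_at, was under the floor on both arrays.

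Peg3, which encodes a large zinc finger protein, was higher in knockout-labelled islets by every probe set that had a ratio, though none reached 2-fold. 1417355_at gave 4885.0 in knockout-labelled and 4184.7 in control islets. 1433924_at gave 4323.7 in knockout-labelled and 3552.6 in control islets. 1417356_at gave 1434.3 in knockout-labelled and 945.2 in control islets. Their log2 ratios were 0.22, 0.28 and 0.60, an SD of 0.20 among probe sets of this gene, against a median SD of 0.21 over 4719 genes with several such probe sets. The 0.60 of 1417356_at lay above the central range of probe sets in its signal bin, -0.78 to 0.40, taken as for Nnat. The 0.22 and 0.28 lay inside that range. The other 2 Peg3 probe sets were under the floor on both arrays. In the Peg3 domain, Usp29, a gene named for a ubiquitin-specific protease, was at 41.5 in knockout-labelled and 25.8 in control islets, and Zim1, a zinc finger gene, was at 35.5 in knockout-labelled and 29.9 in control islets, with log2 ratios of 0.69 and 0.25.

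Mest, which encodes a protein of the alpha/beta hydrolase family, was close to equal, at 110.5 in knockout-labelled and 121.2 in control islets, a log2 ratio of -0.13. Its neighbour Copg2, a coatomer subunit gene, had a log2 ratio of -0.37. Of the 5 paternally expressed genes, Mest was thus the 1 with a ratio below 0. This grouping by parental copy was made after the values were seen.

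**Figure D2:**
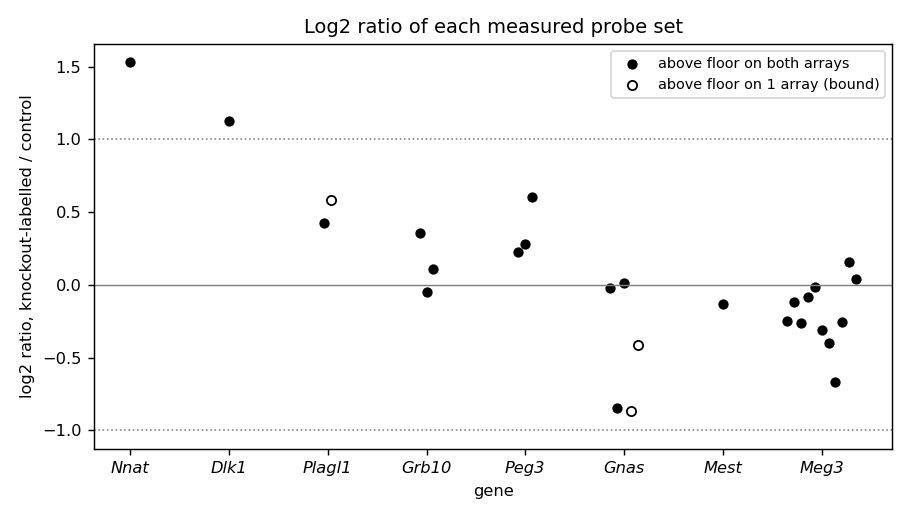
Log2 ratio of knockout-labelled over control signal for the 27 measured probe sets, by gene, with dotted lines at 2-fold. Nnat and Dlk1 lie above the upper line at 1.53 and 1.13, and the 11 Meg3 probe sets run from -0.67 to 0.16.

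Of the maternally expressed genes, Meg3, which gives a long non-coding RNA, was measured most often, and most of its probe sets were slightly lower in knockout-labelled islets. The brightest, 1439380_x_at, gave 5028.8 in knockout-labelled and 5971.3 in control islets. The ratio farthest from 1 was that of 1429257_at, at 140.2 in knockout-labelled and 223.1 in control islets. Of the 11 probe sets, all above the floor on both arrays, 9 were lower and 2 were higher. Their log2 ratios ran from -0.67 to 0.16, with a median of -0.25 and an SD of 0.23, and none reached 2-fold. All 11 read the same RNA preparation on each array, so their number does not stand for replicates. Which Meg3 transcript each probe set reads was not analysed here.

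The other genes of the Dlk1-Meg3 domain did not share 1 direction. Rian, a non-coding RNA gene beside Meg3, was at 469.9 in knockout-labelled and 421.7 in control islets in its brightest probe set, a log2 ratio of 0.16, while its 3 other measured probe sets ran from -0.88 to 0.38. Mirg, a microRNA host gene of the domain, had a log2 ratio of -0.26 and 0.04 in its other probe set. Dlk1 and Meg3 come from opposite parental copies, and their brightest probe sets had log2 ratios of 1.13 and -0.25. The Dlk1 control signal lay close to the floor and the Meg3 probe sets ran from -0.67 to 0.16. No opposed pattern is therefore read from the 2 genes.

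Grb10 encodes an adaptor that binds the insulin and IGF1 receptors and dampens their signal. Its brightest probe set 1425458_a_at gave 373.3 in knockout-labelled and 291.8 in control islets, a log2 ratio of 0.36. The other probe sets were nearly equal, with log2 ratios of 0.11 and -0.05. Its neighbour Ddc, which encodes aromatic amino acid decarboxylase, was at 2558.1 in knockout-labelled and 1750.2 in control islets, a log2 ratio of 0.55. Cobl, an actin nucleator gene of the same region, was at 20.6 in knockout-labelled and 37.9 in control islets, a bound of at least 1.75-fold lower.

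Of the insulin and IGF signalling list, 1 of 23 measured genes was called higher and none lower, where 1.82% and 1.44% of all genes were. The median log2 ratio was 0.0093, with 12 genes above and 11 below 0. The gene at the limit was Akt1, a kinase that acts below the insulin receptor, at 454.0 in knockout-labelled and 226.8 in control islets, 2.00-fold. Its 2 other measured probe sets had log2 ratios of 0.21 and 0.56, so only its brightest reached 2-fold. Pik3r1, a regulatory subunit gene of phosphoinositide 3-kinase, had a log2 ratio of 0.68 in its brightest probe set and of 0.48 to 1.08 in its 3 other measured ones. The lowest log2 ratio was that of Pdk1 (-0.78), which in mouse names a pyruvate dehydrogenase kinase and not a kinase of the insulin pathway.

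Cdkn1c, which encodes the cyclin-dependent kinase inhibitor p57, was under the floor on both arrays in its 1 probe set, with signals of 2.0 in knockout-labelled and 3.0 in control islets. No ratio is drawn from them, and a probe set this weak does not show that the transcript is absent. Of its neighbours, Kcnq1, Phlda2 and Slc22a18 were also under the floor on both arrays. Kcnq1ot1, the non-coding RNA gene of that domain, had a log2 ratio of 0.24, and its 2 other measured probe sets ran from -0.08 to 0.24.

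Gnas encodes the stimulatory G protein alpha subunit, which couples receptors such as that for GLP-1 to cAMP production. Its brightest probe set 1450186_s_at was nearly equal, at 5256.0 in knockout-labelled and 5333.6 in control islets. Weaker probe sets of the locus differed more. 1453413_at gave 49.1 in knockout-labelled and 88.2 in control islets, a 1.80-fold lower signal. Its log2 ratio of -0.85 lay just below the central range of probe sets in its signal bin, -0.80 to 0.97, taken as for Nnat. The other Gnas probe sets, with bounds taken at the floor, lay inside the ranges of their bins. 1443375_at was under the floor in knockout-labelled islets and at 39.6 in control islets, a log2 ratio of -0.87 or lower. The remaining 2 had log2 ratios of 0.0097 for 1427789_s_at and -0.41 or lower for 1421740_at. The SD among the 3 Gnas probe sets above the floor on both arrays was 0.48, the widest of the imprinted genes. Which transcript of the locus each probe set reads was not analysed here. The antisense gene of the locus, listed as Gnasas1, was under the floor on both arrays.

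In the cAMP signalling list, 16 of 33 measured genes lay above and 17 below 0, around a median log2 ratio of -0.0008. In it 4 genes were called higher and none lower, where 1.82% and 1.44% of all genes were. Gcgr, the glucagon receptor gene, was at 55.5 in knockout-labelled and 2.9 in control islets, at least 2.57-fold higher. Gnai1, which encodes an inhibitory G protein subunit, was at 437.8 in knockout-labelled and 174.8 in control islets, and its 2 other measured probe sets had log2 ratios of 0.53 and 1.11. The phosphodiesterase genes Pde7b and Pde8b had log2 ratios of 1.04 and 1.02. The lowest was the adenylyl cyclase gene Adcy4, a bound of at least 1.65-fold lower.

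**Figure D3:**
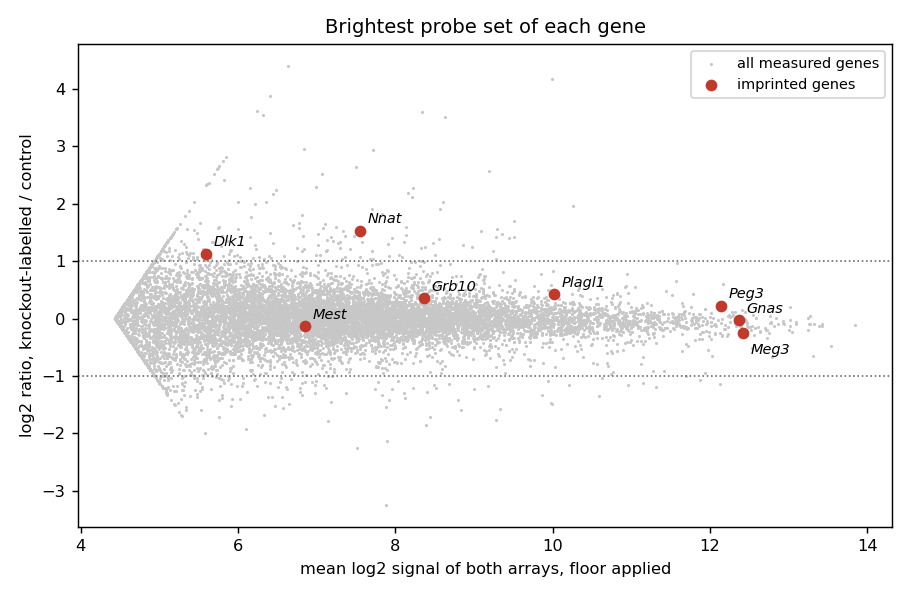
Log2 ratio of knockout-labelled over control against the mean log2 signal of both arrays, for the brightest probe set of 11802 measured genes (grey) and of the 8 measured imprinted genes (red), with dotted lines at 2-fold. Dlk1 sits among weak signals where ratios scatter widely, while Nnat, at 1.53, lies outside most genes of its signal.

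Imprinted genes outside these 10 were taken from a list of 68 symbols, some of them imprinted only in placenta or brain. Of 59 with a probe set of their own, 42 had a ratio. Ratios were above 0 for 22 and below 0 for 20, with a median log2 ratio of 0.03. By the brightest probe set, 1 gene of this list was called higher and 3 were called lower, where 1.82% and 1.44% of all genes were. Pon2, a paraoxonase gene, and Asb4 were inside the limit in their brightest probe sets, with log2 ratios of 0.88 and 0.76, and past it in another, with 1.48 and 1.04. Gatm, which encodes an enzyme of creatine synthesis, was at 225.3 in knockout-labelled and 87.1 in control islets, 2.59-fold higher.

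On the lower side were Igf2, Dcn and Qpct. Igf2, the growth factor gene beside H19, was at 26.2 in knockout-labelled and 66.7 in control islets, 2.55-fold lower, with the first of these next to the floor. Dcn, which encodes the matrix protein decorin, was at 19.8 in knockout-labelled and 61.6 in control islets, at least 2.84-fold lower. Qpct, which encodes a glutaminyl cyclase, was at 8.3 in knockout-labelled and 60.9 in control islets, at least 2.81-fold lower. Each of the 4 called genes had a single measured probe set. Whether any of them is imprinted in islets was not analysed here. Ndn, the necdin gene, was just inside the limit with a log2 ratio of -0.95, and its 4 other measured probe sets were all below 0, between -0.73 and -0.37.

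**Figure D4:**
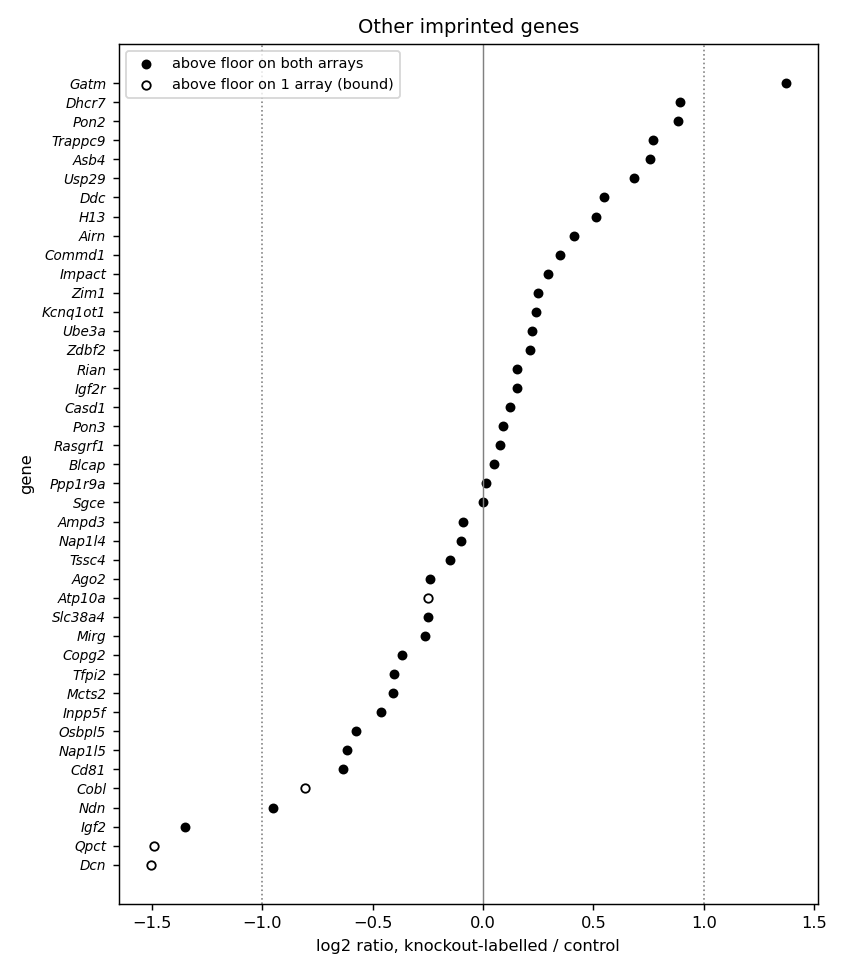
Log2 ratio of knockout-labelled over control for the 42 measured imprinted genes of the wider list, in order of ratio, with dotted lines at 2-fold and bounds as open circles. Gatm stands at 1.37, and Igf2, Qpct and Dcn lie below -1.

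Other cell types of the preparation differed between the arrays, and their part in the ratios above was not tested. Of all measured genes, 49.9% had a ratio above 0, 1.82% were called higher and 1.44% called lower. Of 13 measured acinar markers, 12 were lower in knockout-labelled islets and 8 were 2-fold lower. Their median log2 ratio was -1.07, with a summed signal of 20762.2 in knockout-labelled against 40380.1 in control islets. They ranged from Reg2, a secreted lectin gene (-3.24), to the transcription factor gene Bhlha15 (0.05). Of 12 measured macrophage markers, 11 were higher and 4 were 2-fold higher, with a median of 0.60 and a summed signal of 1790.3 in knockout-labelled against 1100.8 in control islets. They ranged from the lysozyme gene Lyz2 (-0.0090) to the mannose receptor gene Mrc1 (2.42). No listed marker had a signal of 0.

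The islet cell lists differed less. Around a median log2 ratio of -0.11, the 11 beta cell markers ran from Ucn3 (-0.54) to Pcsk1 (0.77). The 5 measured alpha cell markers had a median of -0.36, from Ttr (-0.47) to Slc38a5 (1.41). That median was -0.12 with the floor at the 70th percentile. The 5 delta and PP cell markers had a median of 0.02, from Ppy (-0.65) to Hhex (0.52). Dcn is on both the wider imprinted list and the list of fibroblast and stellate markers. The 10 measured fibroblast and stellate markers had a median of -0.24, from Dcn (-1.51) to Rgs5 (0.32). Of them, 2 were 2-fold lower, where 1.44% of all genes were. Their summed signal was 1104.8 in knockout-labelled against 1115.9 in control islets. Their median was 0.26 with the floor at the 70th percentile. Of the 15 fibroblast and stellate symbols, 5 were under the floor on both arrays.

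For the remaining lists the medians were -0.32 over 5 duct markers, from Car2 (-1.41) to Krt7 (-0.27), and -0.18 over 9 endothelial markers, from Cdh5 (-0.46) to Kdr (0.83). The 3 Schwann cell and neuron markers ran from Ncam1 (-0.02) to Ngfr (0.72), with a median of 0.37, which was 0.09 with the mean over probe sets and -0.02 for a floor at the 70th percentile. The 2 lymphocyte markers were Cd79a (-0.40) and Ptprc (0.26), with a median of -0.07. The median of that list was -0.34 with the floor at the 30th percentile.

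**Figure D5:**
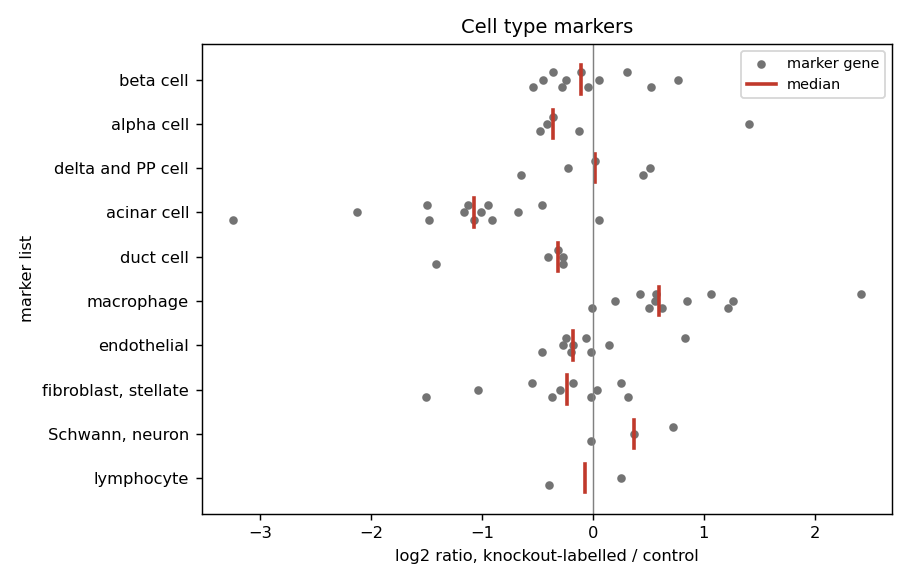
Log2 ratio of knockout-labelled over control for each measured marker gene (grey points, some of them bounds) and the median of each marker list (red bars). Acinar markers have a median of -1.07 and macrophage markers one of 0.60, with the islet cell lists nearer to 0.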

How the data were processed

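The authors deposited linear intensities per probe set, made with MAS5 per the submitters' processing notes. Its version, scaling target and detection calls are not given in the sources used here. All 45037 intensities of each array were used without further normalization. The platform annotation gave 1 gene to 34945 probe sets, several to 932 and none to 9160, and probe sets with several genes were left out. Signals under the 50th percentile of an array were raised to it, and log2 ratios were taken with Python 3.11.15, numpy 2.4.6 and pandas 2.3.3. The brightest probe set by mean log2 signal stood for a gene. Arrays give no counting error, and their number limits the precision. The calculation was checked on simulated data with known folds, all larger than the 2-fold limit and planted in bright genes only. That check does not cover calls near the limit or near the floor.

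The imprinted genes and all gene lists were chosen with earlier results of these data known. Genes named are the 10 imprinted genes, Zbtb20, listed imprinted genes past 2-fold or sharing a locus with 1 of the 10, the extremes of each list with those past 2-fold, and the 3 genes nearest to Nnat. Further genes, such as Pon2, Asb4, Ndn, Pik3r1, Tram1, Sec62, Zfp57 and Ins2, were named outside this rule with their values known. Genes without a probe set of their own were not analysed here. Alternatives were other floors, a pseudocount of 16, quantile normalization, loess (statsmodels 0.14.6), the mean over probe sets, leaving out _s_at and _x_at probe sets, and other fold limits.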

Additional observations from a re-analysis of the deposited data

How the results depend on the processing

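No replicate error exists, and weak signals are limited by the floor, which is not a detection limit. No paired analysis was possible because each group has 1 array. The log2 ratio of Nnat, 1.53, was 1.40 with a pseudocount of 16, 1.51 with quantile normalization and 1.52 with loess. The other floors, the mean over probe sets and leaving out _s_at and _x_at probe sets could not change it. Nnat has 1 probe set, not of these types, with both signals above each floor. For a floor at the 70th percentile the log2 ratio of Dlk1 was a bound of at least 0.0897, with the control signal under that floor. It was 0.85 with a pseudocount of 16, 1.10 with quantile normalization and 1.13 with loess. Dlk1 had no ratio without _s_at and _x_at probe sets. The log2 ratio of Gnas ran from -0.85 to 0.07. The -0.85 came without _s_at and _x_at probe sets, where the much weaker 1453413_at stood for the gene. The median of the measured imprinted genes of the 10 ran from 0.05 to 0.33. The 0.05 came from the same setting, in which Dlk1 and Plagl1 had no ratio. Over all genes, the numbers at least 2-fold higher and lower were 695 and 643 for a floor at the 30th percentile, and 96 and 64 for the 70th. They were 819 and 734 at a 1.5-fold limit and 51 and 17 at a 3-fold limit. Probe sets of the 10 genes called higher numbered 1 for a floor at the 70th percentile, 1 without _s_at and _x_at probe sets, and 0 at a 3-fold limit. They numbered 3 for a floor at the 30th percentile, and at a 1.5-fold limit 3 were called higher and 3 lower. The share of all probe sets called was not computed under these alternatives. Of the wider imprinted list, 2 genes were higher for a floor at the 30th percentile or with the mean over probe sets, and 0 were lower for one at the 70th. At a 1.5-fold limit 6 were higher and 7 lower, and at a 3-fold limit 0 were higher and 0 lower. Of 169 comparisons of log2 ratios and list medians with their alternatives, 11 moved by more than 0.21, the median SD among probe sets of a gene. As for Nnat, some settings could not change a gene with a single probe set or with signals above each floor. The 11 are therefore not read as a share of the 169. With the floor at the 70th percentile the lymphocyte list had no measured gene. The cause was not tested.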

Other observations

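Of the genes that keep or read DNA methylation marks, on which imprinting rests, 13 were measured and none reached 2-fold. Of these, 11 were below 0 and 2 above, where 49.9% of all genes were above, and the median log2 ratio was -0.20. Ctcf and Zfp445, counted as below, were nearly equal at -0.0016 each. Other probe sets were above 0 for Setdb1 and Mbd2, on both sides for Zfp445, and below 0 for Trim28, Ctcf, Tet2 and Mbd1. Dnmt1, which encodes the maintenance DNA methyltransferase, was at 89.6 in knockout-labelled and 150.8 in control islets, the lowest log2 ratio of the list at -0.75, and its 2 other measured probe sets had log2 ratios of -0.61 and -0.42. Dnmt3b, a de novo methyltransferase gene, had the highest at 0.29. Zfp57, an imprint maintenance factor gene, was under the floor on both arrays.

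Of the cyclins, their kinases and the inhibitors related to Cdkn1c, 11 of 14 measured genes were below 0 and 3 above. Of all genes, 49.9% were above 0. The list had a median log2 ratio of -0.12 and no gene at 2-fold. The inhibitor gene Cdkn2c was at 65.9 in knockout-labelled and 117.6 in control islets, the lowest at -0.84. The cyclin gene Ccne2 had the highest at 0.24. Ccna2 and Cdk6, counted as below, are bounds with the knockout-labelled signal under the floor. Other measured probe sets went the other way for Cdkn1a (0.40) and Ccne1 (-0.67). They lay on both sides of 0 for Ccnd2 and Cdk4, and below 0 for Cdkn1b and Ccnd1.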
